A study of Mus musculus with 6 samples.

Results

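The genes of antigen processing and of the major histocompatibility complex (MHC) were followed on 6 arrays of 3T3-L1 cells, a clonal mouse fibroblast line that turns into adipocytes in culture. The 10 genes were taken by symbol: B2m, H2-K1, H2-D1, Tap1, Tap2, Tapbp, Psmb8, Psmb9, Psmb10 and Cd74, out of 19938 genes with a probe set of 1 symbol. For 8 of them the brightest probe set of that symbol alone, by its mean log2 signal, was used, and H2-K1 and H2-D1, which occur only on probe sets that list several symbols, were followed through 2 shared probe sets. The set listing H2-K1 first and the set listing H2-D1 first are called the H2-K1 probe set and the H2-D1 probe set here. Each lists the other gene and LOC547349 as well, so the 2 genes cannot be told apart by name. All 10 passed the filter on dim genes, a mean log2 signal of at least 5.87 over the 6 arrays, the median of all genes. Cd74, with a mean of 5.97, passed it through its fibroblast arrays.

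The adipocyte arrays came from cells induced for 3 days in medium with 10% fetal bovine serum, which held dexamethasone at 1 µmol/l, IBMX at 115 µg/ml and insulin at 1 µg/ml, and then kept for 3 days with insulin. Adenine, a purine base, or AICAR, a ribonucleoside that activates AMP-activated protein kinase once it is phosphorylated, was present at 0.5 mM during the induction days and absent afterwards, and the control received neither. The fibroblast arrays came from undifferentiated cells in 10% calf serum, with 0.5 mM AICAR or adenine for 3 days or with neither. Each of the 6 conditions had 1 array, so the differentiation drugs, the serum and the cell state cannot be told apart, and the compounds had been withdrawn in the adipocytes but not in the fibroblasts. Array medians of all 35556 probe sets lay between 5.41 and 5.49. Of 10 adipocyte markers 9 were higher in adipocytes in the additive model described below (adjusted p at most 0.05), with a median state coefficient of 4.40 on the log2 scale. In bulk RNA, fewer cells of a type and less RNA per cell cannot be told apart.

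MHC class I molecules show peptides from inside the cell to T cells on nearly every cell type. A heavy chain (from H2-K1 or H2-D1) pairs with β2-microglobulin (B2m) and is loaded in the endoplasmic reticulum with peptides that the proteasome cut and that the TAP transporter carried in. Interferons raise most of these genes and exchange the catalytic proteasome subunits for inducible ones. Cd74 belongs to the other arm: it is the invariant chain that guards the groove of MHC class II, the molecule of professional antigen-presenting cells.

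The promoters of the heavy chain genes and of B2m are known for an NF-kB site beside an interferon response element. They are shown together with those of Psmb8 and Tap1. Psmb8 differed most between the states among the 9 class I members, and Tap1 shares its promoter with Psmb9. Each window runs from 250 bases before to 50 bases after the RefSeq start (GRCm38.p6, 5′ to 3′ on the gene's own strand). Capitals mark matches, on either strand, to AANNGAAA (interferon-factor type), GGGNNTTNC (NF-kB type) or TTCNNNGAA (STAT type).
B2m: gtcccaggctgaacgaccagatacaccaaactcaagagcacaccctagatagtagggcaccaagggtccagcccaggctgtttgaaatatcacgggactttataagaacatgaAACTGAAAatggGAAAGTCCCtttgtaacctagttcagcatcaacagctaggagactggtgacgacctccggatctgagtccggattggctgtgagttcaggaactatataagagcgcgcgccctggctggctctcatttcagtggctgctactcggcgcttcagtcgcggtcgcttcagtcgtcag
H2-K1: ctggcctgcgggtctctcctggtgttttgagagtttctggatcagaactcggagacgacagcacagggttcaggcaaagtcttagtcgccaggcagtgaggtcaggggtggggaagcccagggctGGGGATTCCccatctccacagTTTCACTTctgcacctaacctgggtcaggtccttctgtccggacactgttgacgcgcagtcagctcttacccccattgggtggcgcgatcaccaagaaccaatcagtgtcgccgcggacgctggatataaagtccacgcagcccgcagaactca
H2-D1: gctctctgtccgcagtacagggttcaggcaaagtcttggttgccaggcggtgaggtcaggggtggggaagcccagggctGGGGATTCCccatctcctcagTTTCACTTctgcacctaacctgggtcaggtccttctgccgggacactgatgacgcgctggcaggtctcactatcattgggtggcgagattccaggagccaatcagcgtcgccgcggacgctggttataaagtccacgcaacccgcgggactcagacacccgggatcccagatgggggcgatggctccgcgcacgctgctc
Psmb8: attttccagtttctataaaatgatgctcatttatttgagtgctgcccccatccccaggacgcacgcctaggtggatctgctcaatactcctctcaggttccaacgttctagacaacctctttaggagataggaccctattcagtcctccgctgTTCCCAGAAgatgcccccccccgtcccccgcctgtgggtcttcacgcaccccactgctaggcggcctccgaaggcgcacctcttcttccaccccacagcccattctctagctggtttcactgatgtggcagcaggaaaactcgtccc
Tap1: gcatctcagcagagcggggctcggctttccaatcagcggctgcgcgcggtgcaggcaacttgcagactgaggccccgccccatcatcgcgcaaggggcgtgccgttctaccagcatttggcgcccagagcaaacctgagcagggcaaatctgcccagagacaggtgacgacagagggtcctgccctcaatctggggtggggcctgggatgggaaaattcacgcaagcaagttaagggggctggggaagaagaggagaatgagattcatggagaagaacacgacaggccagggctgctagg
They lie at chr2:122147437-122147736 (B2m, plus strand), chr17:34000284-34000583 (H2-K1, minus strand), chr17:35262844-35263143 (H2-D1, plus strand), chr17:34197945-34198244 (Psmb8, plus strand) and chr17:34187306-34187605 (Tap1, plus strand).

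B2m, H2-K1 and H2-D1 each held an interferon-type and an NF-kB-type match, a pair found in 3.60% of 27025 RefSeq promoter windows. In B2m the interferon-type match lay at -137 to -130 and the NF-kB-type match at -125 to -117 relative to the start. In H2-K1 they lay at -104 to -97 and at -125 to -117, and in H2-D1 at -150 to -143 and at -171 to -163, with the same letters in both heavy chain genes. The interferon-type match alone was found in 24.2% of all windows and the NF-kB-type match in 15.1%. Psmb8 held a STAT-type match at -97 to -89, a type found in 8.47%. No letters matched in the windows of Tap1, Psmb9, Tapbp and Psmb10, and no 2 matches overlapped. Windows were read for 8 of the 10 genes. No window was available for Tap2, and Cd74 was left out of the search by choice. The motif letters were widened after a first search, so the shares of all windows give no test of these matches. The windows of H2-K1 and H2-D1 read alike around the matches and are not independent. A match describes letters and shows no binding.

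Across the class I pathway the adipocyte arrays were lower than the fibroblast arrays. The 9 class I genes or probe sets did not overlap between the states: every adipocyte array lay below every fibroblast array. The same holds in that direction for 19.9% of the 9971 genes and shared probe sets tested. That share gives no test, because the members were chosen with earlier results of these data known. Cd74 was the exception among the 10, since its lowest value of all was in a fibroblast array. The mean of the 9, each centred on its own mean over the 6 arrays, was -0.14 with AICAR, -0.63 with adenine and -0.68 in the control for adipocytes, against 0.47, 0.47 and 0.51 in the same order for fibroblasts. The fibroblast means lie close together, and among adipocytes the AICAR array is nearest to them.

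**Figure D1:**
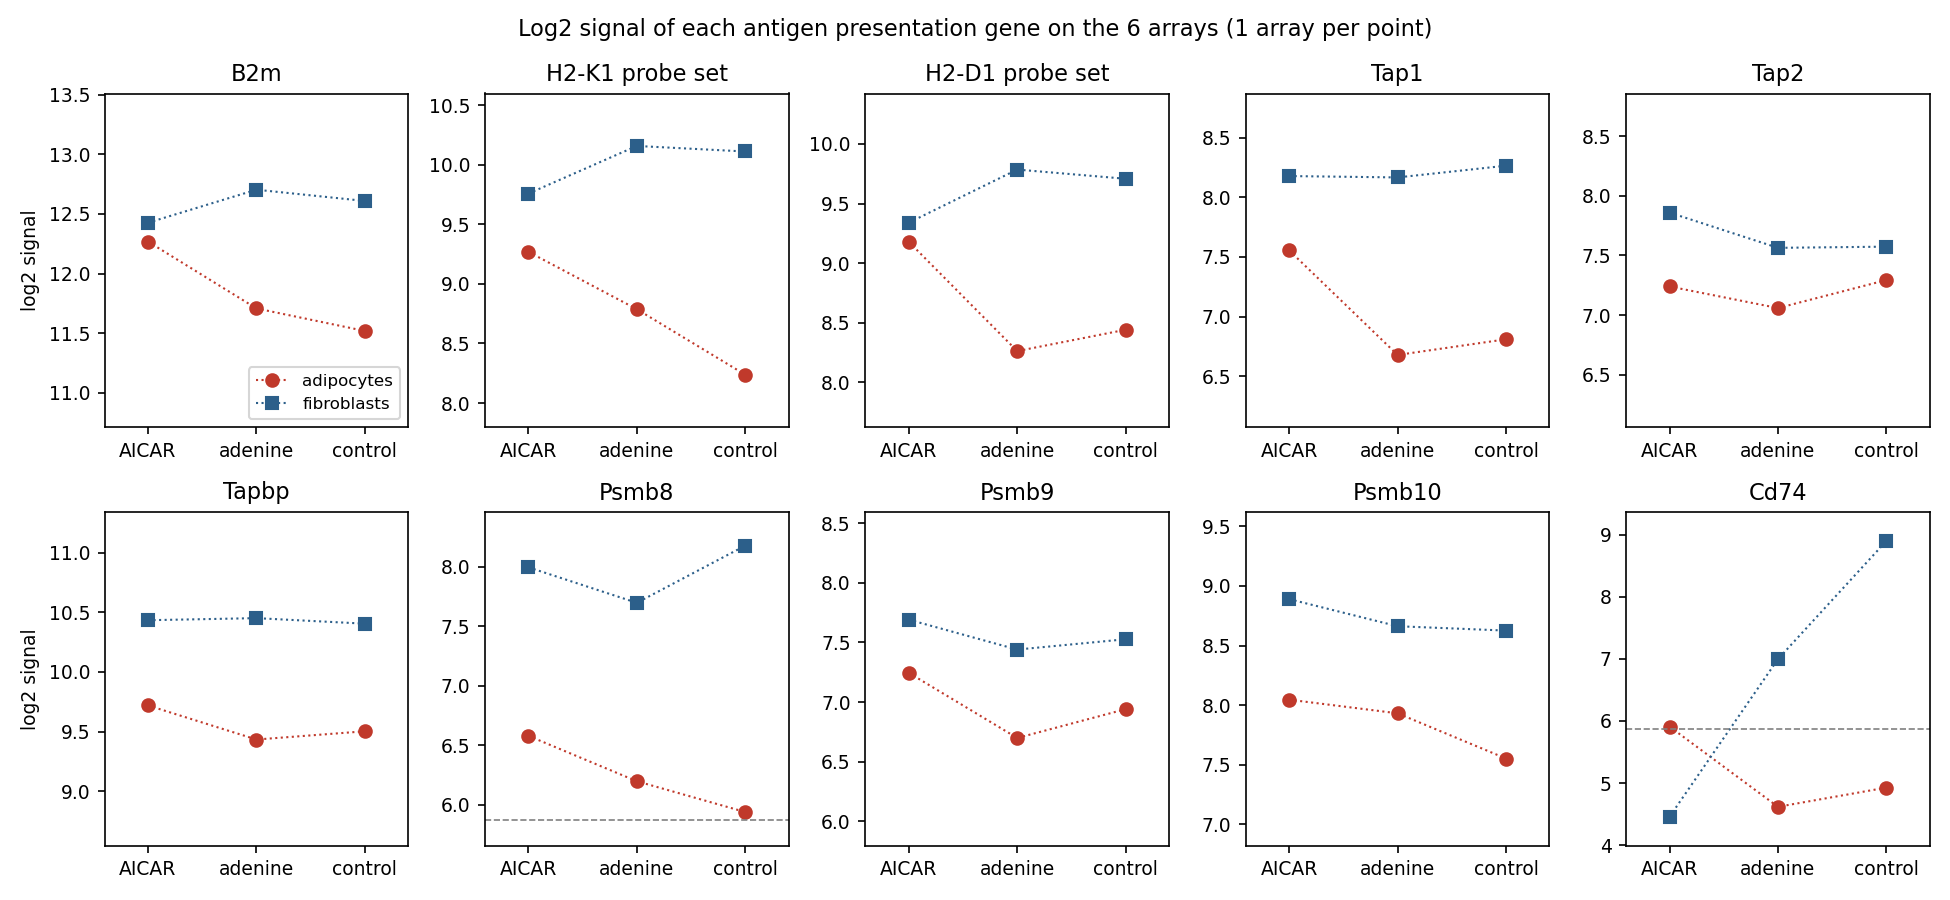
Log2 signal (y axis) of the 10 genes or shared probe sets on the 6 arrays, by medium (x axis), with 1 array per point, adipocytes as red circles and fibroblasts as blue squares; dotted lines join arrays of 1 state, and the dashed line in the Psmb8 and Cd74 panels is the filter at 5.87. The red points lie below the blue ones in 9 panels; in the Cd74 panel the AICAR points are the other way round, 5.91 in adipocytes and 4.46 in fibroblasts.

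The light chain, B2m (chr2:122147687-122153082 in GRCm38.p6), had log2 signals of 12.27 with AICAR, 11.71 with adenine and 11.52 in the control in adipocytes, against 12.43, 12.70 and 12.61 in fibroblasts. Adipocytes averaged 11.83 ± 0.39 and fibroblasts 12.58 ± 0.14 (SD, n = 3 arrays of different media). The states differed by -1.09 in control medium, a 2.13-fold lower signal in adipocytes, but by -0.16 with AICAR, where they lay close together. On log2 values a difference of 1 is 2-fold, the size used for counting below. The lowest fibroblast array and the highest adipocyte array were both AICAR arrays.

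The heavy chains bind the peptide and are read by T cells. The H2-K1 probe set had 9.27 with AICAR, 8.79 with adenine and 8.24 in the control in adipocytes, against 9.76, 10.16 and 10.11 in fibroblasts. The H2-D1 probe set had 9.18, 8.26 and 8.44 in adipocytes and 9.34, 9.78 and 9.71 in fibroblasts, in the same order. For both sets the highest adipocyte array and the lowest fibroblast array were those with AICAR. The state difference of the H2-K1 probe set was -0.49 with AICAR, -1.37 with adenine and -1.87 in the control, and that of the H2-D1 probe set -0.16, -1.52 and -1.27. Class I heavy chain genes are polymorphic, and the effect of alleles of these cells on probes designed on a reference genome was not tested.

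Tap1 and Tap2 encode the subunits of the transporter that pumps peptides into the endoplasmic reticulum. Tap1 had 7.56 with AICAR, 6.68 with adenine and 6.81 in the control in adipocytes, against 8.18, 8.17 and 8.27 in fibroblasts. Its state difference was -0.62 with AICAR, -1.49 with adenine and -1.46 in the control. Tap2 had 7.24, 7.06 and 7.29 in adipocytes and 7.86, 7.56 and 7.57 in fibroblasts, in the same order. Its differences lay between -0.62 and -0.28, and the gap between its states was 0.27.

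Tapbp encodes tapasin, which holds the empty heavy chain next to the transporter. It had 9.72 with AICAR, 9.43 with adenine and 9.50 in the control in adipocytes, against 10.43, 10.45 and 10.40 in fibroblasts, so the states lay apart by a similar step in every medium (-0.72, -1.02 and -0.90). The symbol also occurs with Rps3a1, a ribosomal protein gene, on 2 other probe sets, which lay between 11.34 and 11.41 and between 10.91 and 11.04 in adipocytes, against 11.38 to 11.60 and 11.02 to 11.20 in fibroblasts. Both shared sets overlapped between the states, and the set of Tapbp alone did not.

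Psmb8, Psmb9 and Psmb10 are the inducible catalytic subunits that turn the proteasome into the immunoproteasome, replacing Psmb5, Psmb6 and Psmb7. Psmb8 had 6.58 with AICAR, 6.20 with adenine and 5.94 in the control in adipocytes, against 7.99, 7.70 and 8.18 in fibroblasts. Its differences of -1.41, -1.50 and -2.24 made it the only 1 of the 9 class I members past 2-fold in all 3 media. Outside the members, H2-Q4, H2-T10 and Mr1, described below, were past it in all 3 as well. The control signal of Psmb8 was 4.71-fold lower in adipocytes. The adipocyte control lay just above the filter value of 5.87, so that fold depends on the background correction.

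Psmb9 had 7.25 with AICAR, 6.70 with adenine and 6.94 in the control in adipocytes, against 7.69, 7.44 and 7.53 in fibroblasts, with differences of -0.45, -0.74 and -0.59. Psmb10 (chr8:105935728-105938392) had 8.05, 7.93 and 7.55 in adipocytes and 8.89, 8.66 and 8.63 in fibroblasts, with differences of -0.84, -0.73 and -1.07. The constitutive counterparts did not follow: the state difference of Psmb5 was 0.54 with AICAR, 0.28 with adenine and 0.07 in the control, that of Psmb6 was 0.55, 0.27 and -0.12, and that of Psmb7 was 0.51, 0.50 and 0.24. Taken inducible minus constitutive, the state differences were -2.31 to -1.78 for Psmb8 and Psmb5, -1.35 to -1.23 for Psmb10 and Psmb7, and -1.01 to -0.46 for Psmb9 and Psmb6. None of the 3 constitutive genes passed the test of the additive model.

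**Figure D2:**
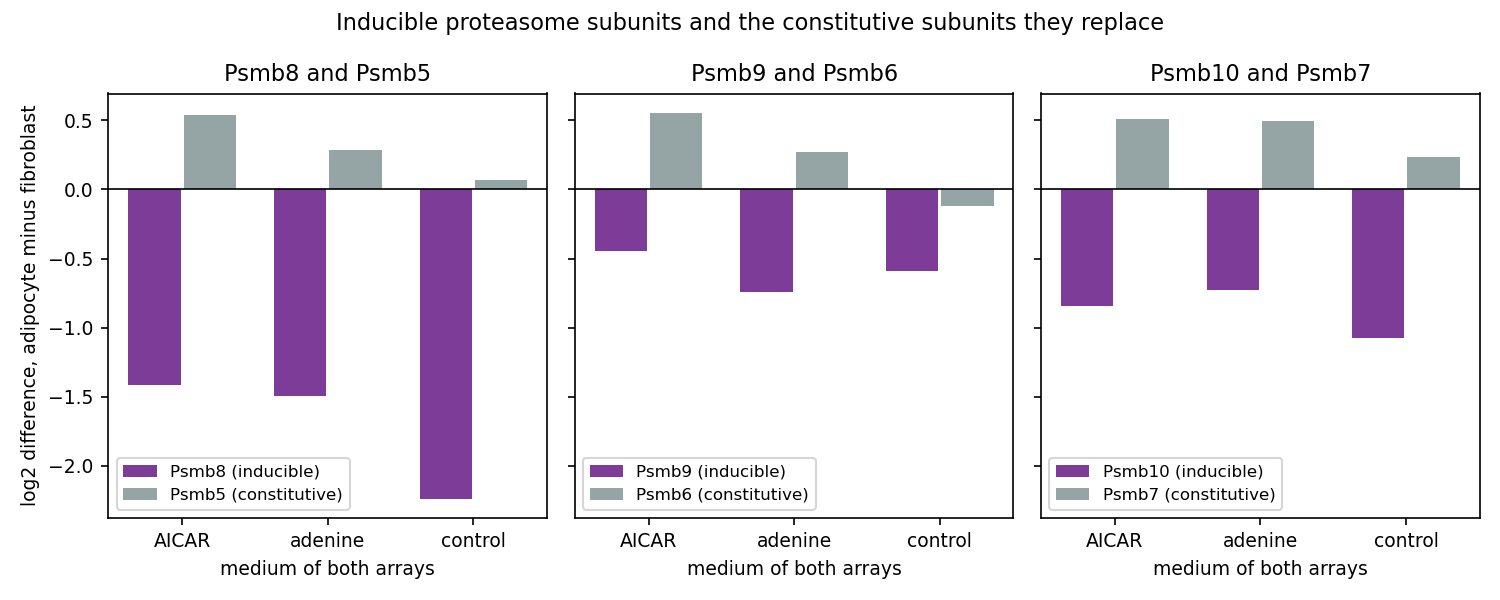
Log2 difference, adipocyte minus fibroblast (y axis), of each inducible proteasome subunit (purple) and the constitutive subunit it replaces (grey), by the medium of both arrays (x axis); each bar is a difference of 2 arrays. All 9 purple bars point down, from -0.45 to -2.24, and 8 of 9 grey bars point up, the exception being Psmb6 in control medium at -0.12.

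Cd74 behaved unlike the class I genes. Its log2 signal was 5.91 with AICAR, 4.62 with adenine and 4.93 in the control in adipocytes, against 4.46, 6.99 and 8.90 in fibroblasts. Only the fibroblast control, the fibroblast adenine and, barely, the adipocyte AICAR array reached 5.87. The state difference was 1.45 with AICAR, -2.38 with adenine and -3.97 in the control, so its sign turned with AICAR. In fibroblasts AICAR minus control was -4.44 and adenine minus control -1.90, and none of the 9 class I members was past 2-fold in either comparison. A fold from values under 5.87 depends on the background correction. Of 10 fibroblast markers 5 were also at least 2-fold lower with AICAR than in control fibroblasts, with a list median of -0.95, Dlk1 at -2.45 and S100a4 at -2.28; their part in the Cd74 values was not tested.

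The genes of the invariant chain's partners lay under the filter. Of 14 genes in a list of MHC class II and its loading, 12 had a probe set of their own and 3 passed the filter. H2-Aa, H2-Ab1 and H2-Eb1, the chains of class II itself, the chaperone genes H2-DMa, H2-Oa and H2-Ob, the protease gene Ctss and Ciita, the master activator of class II genes, were below 5.87 on all 6 arrays. Ciita lay between 4.73 and 4.99, and the 2 highest mean state differences of the list, for H2-Oa and H2-Eb1, were 0.22 and 0.18. The 3 that passed are lysosomal enzymes with wider roles: Ifi30, a thiol reductase, and the proteases Ctsl and Lgmn. All 3 were lower in adipocytes in the additive model, with state coefficients of -2.43, -1.09 and -1.06 (adjusted p = 0.0311, 0.0378 and 0.0300).

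**Figure D3:**
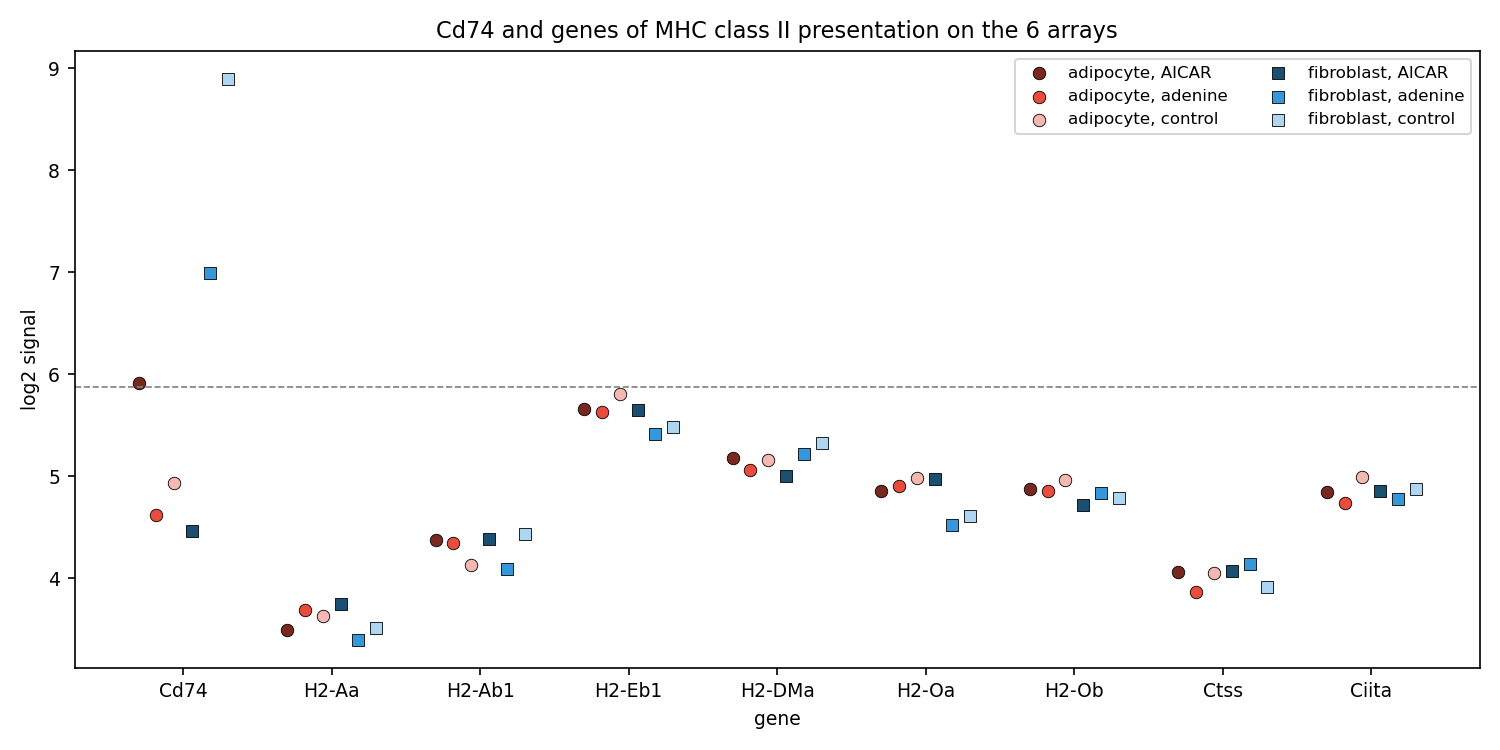
Log2 signal (y axis) of Cd74 and of 8 genes of MHC class II presentation (x axis) on the 6 arrays; circles are adipocyte arrays, squares fibroblast arrays, shades the media, and the dashed line the filter at 5.87. Cd74 reaches 8.90 in the fibroblast control and 6.99 with adenine, while the other 8 genes stay under the line on every array.

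Of 15 leukocyte markers with a probe set, 3 ever reached 5.87, and Ptprc, the common leukocyte antigen, lay between 3.86 and 4.32. The list mean was 4.53 to 4.77 in adipocyte arrays and 4.82 to 5.10 in fibroblast arrays. The list medians overlapped, at 4.59 to 4.86 in adipocyte arrays and 4.50 to 4.89 in fibroblast arrays. Of the 15 markers, 10 were lower in adipocytes with AICAR, 9 with adenine and 3 in control medium. Lyz2, the macrophage lysozyme gene, moved with the state, at 5.57 with AICAR, 3.81 with adenine and 5.32 in the control in adipocytes, against 7.10, 8.12 and 7.99 in fibroblasts. Its 3 adipocyte arrays lay under 5.87, so it passed the filter through the fibroblast arrays, and it was the only marker of the list called (state coefficient -2.84, adjusted p = 0.0284). AICAR minus control in fibroblasts was -0.89 for Lyz2, 1.49 for Cd68, another macrophage marker, and -4.44 for Cd74. Their part in the Cd74 values was not tested. No endothelial or epithelial marker passed the filter.

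Counted medium by medium, 7 of the 10 were at least 2-fold lower in adipocytes in control medium, where 4.29% of all tested were, and the median of the 10 was -1.18 against 0.02 over all tested. With adenine 6 of 10 were, against a background of 8.48% and with a median of -1.19 against 0.03. With AICAR 1 of 10, Psmb8, was lower, against 4.60%, while Cd74 was at least 2-fold higher, and the median was -0.55 against 0.00. In adenine medium B2m lay just short of 2-fold at -0.996 and Tapbp just past it at -1.02. Cd74 is among the 7 and the 6, with adipocyte values of 4.93 and 4.62, under the filter value. It passed the filter through its fibroblast arrays. Without Cd74 the median was -1.09 in control medium, -1.02 with adenine and -0.62 with AICAR. The 3 counts come from different pairs of arrays and their difference was not tested. Because the members were chosen with earlier results of these data known, the background shares give no test of the counts.

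In fibroblasts the arrays with a compound lay close to the control for the class I members. AICAR minus control lay between -0.37 and 0.29 for the 9 class I members and adenine minus control between -0.48 and 0.09. Differences of at least 2-fold were seen in 5.39% of all tested with AICAR and in 0.130% with adenine, and Cd74 was the 1 member among them in each. The 2 comparisons share the control array.

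In adipocytes the AICAR array was above the control for 9 of the 10 (10 of 10 with median centring, which put Tap2 at 0.0076), with a median of 0.69 against -0.01 over all tested. The H2-K1 probe set was 1.03 higher and so past 2-fold, as 1.00% of all tested were in either direction. Cd74 followed at 0.98, then B2m and Tap1 at 0.75, the H2-D1 probe set at 0.74, Psmb8 at 0.64 and Psmb10 at 0.49. Psmb9 (0.30), Tapbp (0.22) and Tap2 (-0.05) lay nearer to the control. Adenine minus control ran from -0.31 for Cd74 to 0.55 for the H2-K1 probe set, with 4 of 10 above 0 (5 with median centring), a median of -0.10 and none past 2-fold, against 3.64% of all tested. These comparisons share the adipocyte control array. With adenine, 9 of 10 fibroblast markers were at least 2-fold lower and 6 of 10 adipocyte markers at least 2-fold higher than in control adipocytes, and their part in these values was not tested.

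The compounds were compared at the same 0.5 mM for the same 3 days, with 1 pair of arrays in each state and no test. AICAR minus adenine in adipocytes was above 0 for all 10, from 0.11 for Psmb10 to 1.29 for Cd74, with a median of 0.51 against -0.03 over all tested. Cd74 was the 1 past 2-fold, against 3.42% of all tested. In fibroblasts 5 were above 0 and 5 below (6 above with quantile normalization, 4 with median centring), from -0.45 for the H2-D1 probe set to 0.30 for Tap2 and Psmb8 among the class I genes, with Cd74 at -2.54 past 2-fold, against 5.49%. Adenine and AICAR arrays of adipocytes also differed in differentiation markers: of 10 adipocyte markers 6 were at least 2-fold lower with AICAR than with adenine and of 9 tested fibroblast markers 8 were at least 2-fold higher. Against control, AICAR left the fibroblast markers at a median of -0.22 and the adipocyte markers at 0.03. The part of these markers in the values was not tested.

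**Figure D4:**
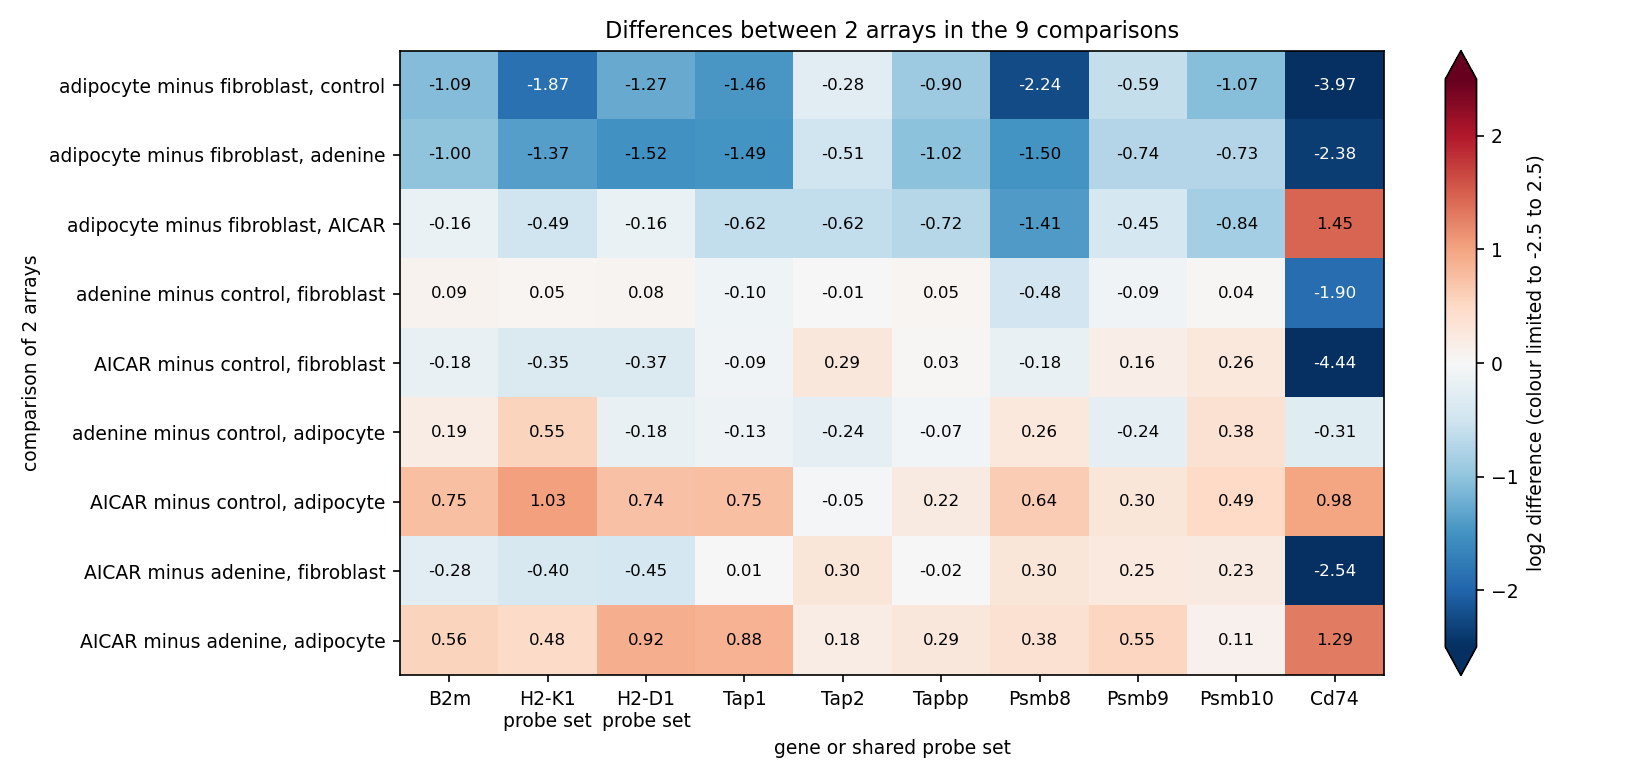
Log2 differences between 2 arrays for the 10 genes or shared probe sets (x axis) in the 9 comparisons (y axis), coloured blue where the first-named condition is lower and red where it is higher; colours stop at 2.5 either way and the numbers give the values. Adipocyte minus fibroblast rows are blue but for Cd74 with AICAR (1.45), and the row of AICAR minus control in adipocytes is red but for Tap2 (-0.05, or 0.0076 with median centring).

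An additive model with state and medium was fitted over all 9971 rows. Its error measures how far the arrays depart from a sum of both effects, on 2 residual degrees of freedom, and not a spread between cultures. It called 536 genes lower in adipocytes (5.38%) and 520 higher at an adjusted p of at most 0.05. Of the 10, 5 were called lower and none higher. The 10 were chosen with earlier results of these data known, so the share over all rows gives no test of this count. The coefficient was -1.72 ± 0.21 for Psmb8 (SE, limma, adjusted p = 0.0122), -0.88 ± 0.15 for Tapbp (adjusted p = 0.0249) and -0.88 ± 0.15 for Psmb10 (adjusted p = 0.0256). It was -1.19 ± 0.22 for Tap1 (adjusted p = 0.0300) and -1.24 ± 0.28 for the H2-K1 probe set (adjusted p = 0.0468), whose call was lost with median centring (adjusted p = 0.0579) and with no filter (adjusted p = 0.0563).

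The other 5 missed the threshold, with coefficients of -0.59 for Psmb9, -0.98 for the H2-D1 probe set, -0.75 for B2m, -0.47 for Tap2 and -1.63 for Cd74 (adjusted p = 0.0593, 0.0861, 0.0918, 0.104 and 0.324). Fits without the pair of arrays of 1 medium have 1 residual degree of freedom. Without the AICAR pair 8 of 10 were called, with B2m (-1.04), the H2-D1 probe set (-1.40) and Cd74 added. Over all 9971 rows that fit called 926 in either direction. The coefficient of Cd74 was -3.17 in that fit (adjusted p = 0.0158), -1.26 without the adenine pair (adjusted p = 0.600) and -0.46 without the control pair (adjusted p = 0.835), and in the first of these both adipocyte values lay under 5.87. Without the adenine pair 510 of all rows were called in either direction, among them 1 of the 10, Psmb8 (-1.82, adjusted p = 0.0136). The coefficients were -1.18 for the H2-K1 probe set, -1.04 for Tap1, -0.96 for Psmb10 and -0.81 for Tapbp. Without the control pair these were -0.93, -1.06, -0.79 and -0.87, with -1.46 for Psmb8, and none of the 10 and no gene of the whole table was called, while 2096 had an unadjusted p under 0.05. For adenine, AICAR and AICAR minus adenine the model called no gene, with 62, 226 and 423 at an unadjusted p under 0.05 and none of the 10 among them. A response that differs between the states goes into the error of this model, so the lack of calls does not show that such responses are absent.

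Of 26 further class I heavy chain genes and relatives 15 had a probe set of their own. The filter was passed by 4, all with coefficients below 0, of which 3 were called lower: H2-Q4 at -2.18, Mr1, which presents vitamin metabolites, at -1.65 and H2-T10 at -1.47 (adjusted p = 0.0208, 0.0121 and 0.0114). H2-Q4 had 5.65 with AICAR, 4.68 with adenine and 4.57 in the control in adipocytes, against 6.85, 7.11 and 7.49 in fibroblasts. All 3 adipocyte values lay under 5.87, so it passed the filter through the fibroblast arrays. H2-M3, which presents formylated peptides, was at -0.89 and not called (adjusted p = 0.0715). Cd1d1, which presents lipids, and Hfe, an iron regulator, did not pass the filter and had the 2 highest mean state differences, 0.49 and 0.09. Cd1d1 had 5.92 with AICAR, 6.21 with adenine and 5.92 in the control in adipocytes, against 5.65, 5.59 and 5.33 in fibroblasts. A probe set shared by H2-T-ps and H2-T23 was -0.52 with AICAR, -1.27 with adenine and -1.39 in the control.

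The general machinery of peptide loading and proteolysis gave few calls. Of 12 tested genes of peptide loading and trimming none was called, with a median state coefficient of -0.02. The 2 lowest were Erap1, the aminopeptidase that trims class I peptides, at -0.81 and Tapbpl, a relative of tapasin, at -0.71 (adjusted p = 0.0758 and 0.0852). The 2 highest were Lap3 (0.38) and Blmh (0.36), cytosolic peptidases. In fibroblasts Erap1 was 1.13 and Tapbpl 0.96 higher with AICAR than in the control. Among 14 constitutive core subunits the median was 0.30, and Psma1 alone was called, higher at 1.52 (adjusted p = 0.0249). Psma6 came next at 0.79, and Psmb2 and Psmb1 were lowest at -0.01 and 0.02. None of 9 activator and assembly genes was called, with Psme1, a subunit of the interferon-inducible activator, at -0.46 and its partner Psme2 at 0.15. The highest of these were Psme3 at 0.52 and Psmg1 at 0.40, and after Psme1 the lowest was Psmg4 at -0.08.

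Among 20 regulators of MHC transcription, 16 were tested and 3 were called lower: Stat2 at -2.27, Irf7 at -1.87 and Irf9 at -1.86 (adjusted p = 0.00972, 0.0424 and 0.0269), factors of the type I interferon response. Over the 16 the median was -0.12. Irf9 had 7.0 with AICAR, 5.80 with adenine and 5.71 in the control in adipocytes, against 7.90, 8.0 and 8.19 in fibroblasts. Its adenine and control adipocyte values lay under 5.87, as did that of Irf7 in the adipocyte control (5.25). AICAR minus control in adipocytes was 1.32 for Irf7, 1.29 for Irf9 and 0.91 for Stat2. Nlrc5, the activator of class I genes, had a coefficient of -0.12 (adjusted p = 0.648), with signals between 8.51 and 8.90 on all arrays. Irf1, induced by interferon gamma, was at -0.65 (adjusted p = 0.105), and its AICAR minus control difference was 0.78 in fibroblasts and -0.05 in adipocytes. Stat3 and Nfyb had the 2 highest mean state differences, 0.55 and 0.43, and neither was called.

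Of the 10 genes 7 lie on chromosome 17 within 1348.02 kb (RefSeq, GRCm38.p6), from Tapbp (chr17:33919478-33929290) and H2-K1 (chr17:33996012-34000619) to H2-D1 (chr17:35263094-35267497). Psmb9 (chr17:34182030-34187330), Tap1 (chr17:34187556-34197225), Psmb8 (chr17:34198195-34201454) and Tap2 (chr17:34204479-34216321) fill 34.292 kb, and the starts of Psmb9 and Tap1 face each other across 225 bases. The state coefficient was -0.59 ± 0.14 for Psmb9 and -1.19 ± 0.22 for Tap1 (SE), and the difference between these 2 coefficients was not tested. Of the 43 other tested genes in the region 18 had a coefficient below 0, with a median of 0.05 against 0.02 over all tested. Of these 43, 4 were called lower and none higher: Ddah2, Tnxb, Clic1 and Neu1, at -1.45, -0.97, -0.87 and -0.85, which are named after their values were seen.

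**Figure D5:**
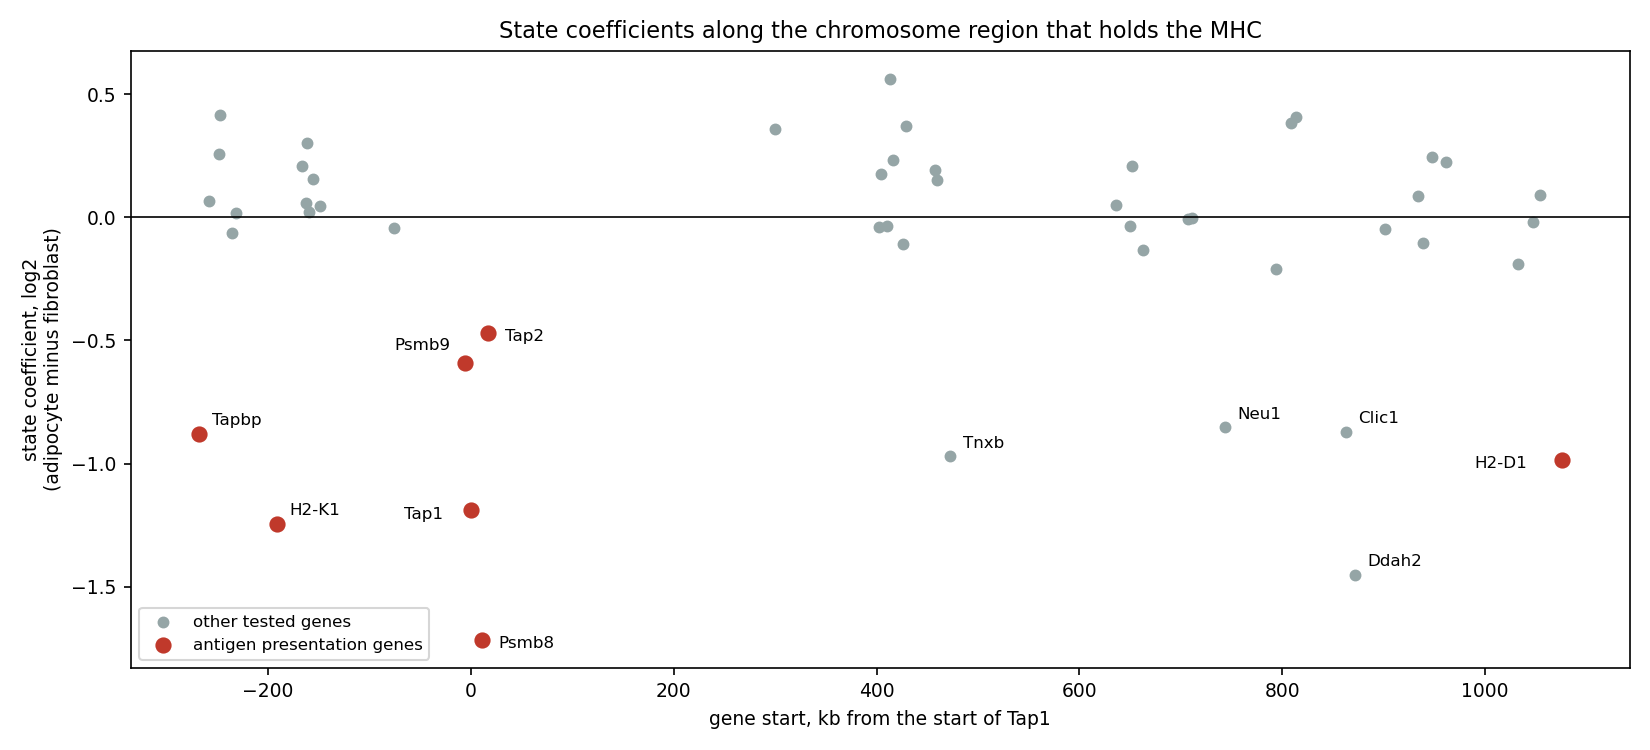
State coefficient of the additive model, adipocyte minus fibroblast in log2 (y axis), of the 50 tested genes in the MHC region by the distance of their start from that of Tap1 in kb (x axis); red points are antigen presentation genes and grey points the other genes. The 7 red points all lie below 0, from -0.47 to -1.72, while the grey ones scatter about 0 except for Tnxb, Neu1, Clic1 and Ddah2.

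By the root mean square difference of centred log2 values over the 6 arrays, the 5 genes closest to the mean profile of the 10 were Lgmn (0.09), Ctsl (0.10), Ephx1 (0.13), Tpp1 (0.13) and Syne1 (0.13). That profile includes Cd74, which changes its fibroblast part. With Cd74 it was 0.27 with AICAR, 0.53 with adenine and 0.75 in the control in fibroblasts. Without Cd74 it was 0.47, 0.47 and 0.51 in the same order, and the genes closest to that profile were not searched. Lgmn had 9.09 with AICAR, 8.53 with adenine and 8.61 in the control in adipocytes, against 9.69, 9.83 and 9.89 in fibroblasts. No gene came as close to Cd74, for which the 5 closest were Cdsn (0.63), Ifi27l2a (0.70), Apod (0.70), Sema3c (0.72) and Aldh1l2 (0.73). Cdsn, the corneodesmosin gene, had 9.01 with AICAR, 7.29 with adenine and 7.24 in the control in adipocytes, against 6.39, 8.86 and 10.01 in fibroblasts.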

How the data were processed

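RNA of each culture was run on 1 Affymetrix array, labelled with whole-transcript kits per the labels' protocols. The authors deposited log2 expression values; the submitters' processing notes name Transcriptome Analysis Console 1.0.0.234 and mm10. The sources used here do not give the background correction or the normalization. The values entered all steps unchanged, without detection calls. With 1 array per condition the number of arrays limits the precision. Platform annotation gave 1 symbol to 21789 of 35556 probe sets, and the highest mean chose among several; of these genes, 9969 passed the filter at the median mean, 5.87, and the 2 shared heavy chain probe sets were added as rows.

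Differences are between 2 arrays, with no test. The additive model (state and medium) was fitted with limma 3.58.1 in R 4.3.3 over 9971 rows with Benjamini-Hochberg adjustment, and was tested on simulated data. The members and lists were chosen with earlier results of these data known. Named are all 10 genes, the 2 highest and 2 lowest of each pathway list by mean state difference, Psmb5, Psmb6, Psmb7, Nlrc5, Ciita and Irf1, and the 5 closest profiles; other list genes and markers were named after their values were seen. Promoters came from RefSeq (GRCm38.p6); the motif letters were widened after a first search. Alternatives were quantile normalization, median centring, other filters, probe set means, a trended prior and leaving out the pair of arrays of 1 medium.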

Additional observations from a re-analysis of the deposited data

Results flagged for a closer look

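AICAR minus control had opposite signs in the 2 states for 7 of the 10, with 1 array per condition, and in 3 of these the states lay at least 2-fold apart. The difference between the states was not tested. The H2-K1 probe set was at 1.03 in adipocytes and -0.35 in fibroblasts, and the H2-D1 probe set, which lists the same genes, at 0.74 and -0.37. Cd74 was at 0.98 in adipocytes and -4.44 in fibroblasts. For adenine minus control the signs were opposite for 3 of the 10, none of them 2-fold apart.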

How the results depend on the processing

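Quantile normalization shifted a difference of the 10 by up to 0.147 and median centring by up to 0.0778. Of 270 recomputed single differences 4 crossed 2-fold and 6 changed sign, the latter all at most 0.0692 in size in the deposited values. The 270 include those from probe set means, which could not change, because each of the 10 had 1 probe set in use. With either scaling 2 of the 10, in place of 1, were at least 2-fold higher in adipocytes with AICAR than in the control (Cd74 at 1.04 beside the H2-K1 probe set). B2m crossed 2-fold in adenine medium after quantile normalization (-1.04), and Tapbp fell short of it after median centring (-0.996). All 85 recomputed state coefficients were below 0, but for many of them the sign was fixed in advance. Other filters, a trended prior and probe set means cannot change a coefficient of the 10. For the 9 class I members the state difference was below 0 in every medium, so leaving out a pair of arrays cannot turn its sign. The count of the 10 called lower in adipocytes was 5 in the report. It was 4 or 5 under quantile normalization, median centring, no filter, probe set means and a trended prior. It was 3 with the filter at the 75th percentile, which tests fewer genes and calls 604. That filter, at 7.69, left Tap1, Tap2, Psmb8, Psmb9 and Cd74 untested, of which Tap1 and Psmb8 were called in the report. The H2-K1 probe set lost its call with median centring (adjusted p = 0.0579) and with no filter (adjusted p = 0.0563). The count of the 10 was 0 without the control arrays, 1 without the adenine arrays and 8 without the AICAR arrays, with 0, 510 and 926 genes called over the table, against 1056 with all arrays; each of these fits has 1 residual degree of freedom, and the cause was not tested. Without a filter the backgrounds of lower signals in adipocytes were 2.58% in control, 4.9% in adenine and 2.79% in AICAR medium. No gene was called for either compound or their difference under any alternative run. A response that differs between the states goes into the error there as well. Beyond the pairing by medium in the additive model, no paired analysis was possible because each condition had 1 array.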
